A study of Danio rerio with 8 samples.

Results

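Fibrinogen and the other coagulation proteins are made in the liver and secreted into the blood, and 10 zebrafish genes were taken here: the fibrinogen chain genes fga, fgb and fgg, the protease genes f2, f7 and f10, the antithrombin gene serpinc1, the plasminogen gene plg, the kininogen gene kng1 and the hepcidin gene hamp. Their probes were those whose transcript accession on the array belonged to one of these genes in a RefSeq gene table. This gave 13 of the 43603 probes, for 6 of the 12858 named genes on the array: 2 probes of fga, 3 of fgb, 3 of f7, 2 of serpinc1, 2 of plg and 1 of hamp. No probe was matched in this way for fgg, f2, f10 and kng1, and these 4 genes were not analysed here. All 13 probes were well above background on all 8 arrays, so every one passed the filter on dim probes, and none was saturated.

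RNA came from whole zebrafish larvae of the WIK background at 4 days post fertilization. There were 4 control pools, labelled wild type, and 4 pools of LIS1 morphants, in which LIS1, a regulator of the motor protein dynein, had been transiently knocked down with a morpholino. Each pool held 10 larvae, and each was hybridised with a single dye to its own array. Morphants had been picked by a slight phenotype and by seizures, the eggs of both groups came from common pools, and the sources used here do not say whether controls received an injection. The group difference therefore covers the knockdown, the injection where there was one, and that selection.

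Blood clotting starts when tissue factor meets factor VII, encoded by f7. The cascade that follows activates factor X and then prothrombin, and thrombin cuts fibrinogen, a protein of alpha, beta and gamma chains, into the fibrin of the clot. Antithrombin holds thrombin and factor X in check, and plasminogen gives rise to plasmin, which dissolves fibrin. In mammals fibrinogen and hepcidin are acute phase proteins, whose hepatic transcription rises under interleukin 6. Hepcidin is not a clotting protein but the hormone that blocks iron export through ferroportin.

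Levels below are in log2 units above or below the array's own 75th percentile of signal, and a change is the morphant mean minus the control mean on this scale. The 75th percentile itself lay between 1084 and 1490 on the control arrays and between 1457 and 1789 on the morphant arrays (exact permutation p = 0.0571). The median spike-in signal was lower on morphant arrays, at a log2 value of 10.66 ± 0.11 against 11.03 ± 0.19 in controls (SD, n = 4 each, exact permutation p = 0.0571). Scaling the arrays to the spike-ins moved the median change of all tested probes from -0.03 to 0.71, and every change below is relative to the first of these. Among the falls named below that passed in the main fit, those of f3b, prox1a, tek, mcm2, hgd, tat, pah and mfsd10 turned above 0 with that scaling. So did those of ttr and gc, which passed only in a fit that paired the arrays by slide. Probes of the knocked-down genes pafah1b1a and pafah1b1b changed by -0.03 to 0.65. The pafah1b1a probe A_15_P281691, at 0.65, passed as higher (limma adjusted p = 0.0305), while the other pafah1b1a probe was at 0.07 (adjusted p = 0.791). Those of pafah1b1b, at -0.03 to 0.07, did not pass. A morpholino need not alter the transcript. In RNA from whole larvae, fewer liver cells and less RNA per liver cell cannot be told apart.

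Fibrinogen transcripts were higher in the morphants at the brightest probes of fga and fgb and at a second fgb probe. Hepcidin transcripts were lower. The brightest probe of fga rose 3.04-fold and that of fgb 2.07-fold, f7 and serpinc1 rose by smaller amounts, and hamp fell by 1.25 on the log2 scale. The second fga probe changed by 0.53 and the third fgb probe by -0.61, and neither passed. Averaged over the controls alone, the second fga probe was the brighter, at 2.02 against 1.88. In a fit that paired the arrays by slide the fall of hamp did not pass (limma adjusted p = 0.0690). The brightest probe of plg did not pass the threshold, while its dimmer probe rose. With limma fitted over all tested probes and a threshold of 0.05 on the adjusted p, 7 of the 13 probes passed, 6 of them higher and 1 lower. Among all 36707 probes tested, 38.5% passed, 17.4% higher and 21.0% lower. The change was above 0 for 11 of the 13 probes and for 47.8% of all probes. The median change over the brightest probes of the 6 genes was 0.68, and it was -0.06 over the brightest probes of all genes.

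**Figure D1:**
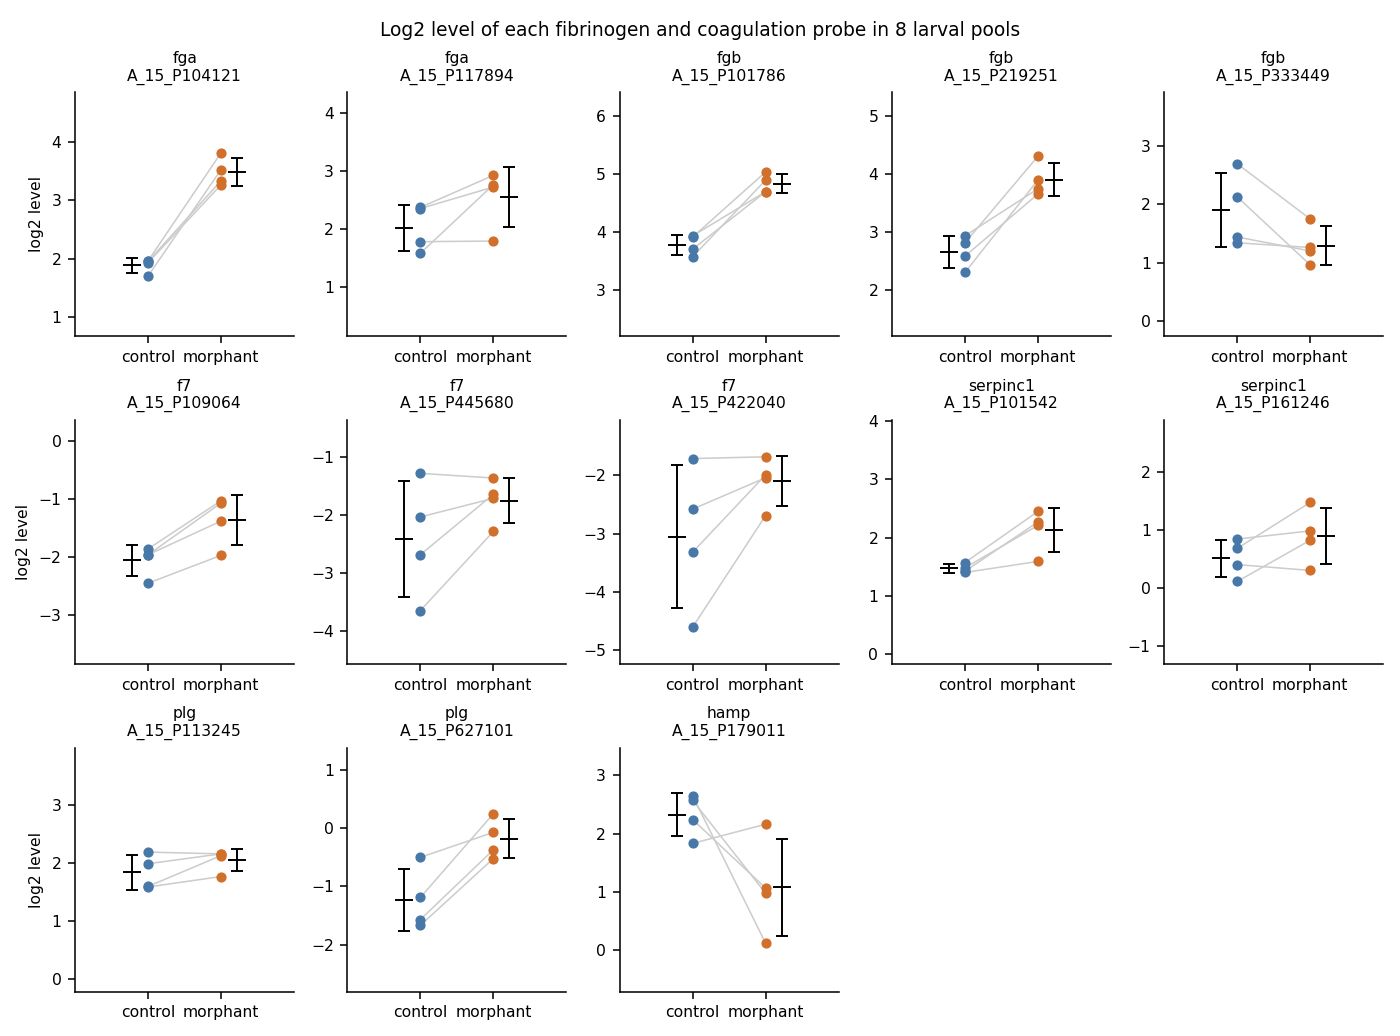
Log2 level relative to the array's 75th percentile (vertical axis, the same span in every panel) of each of the 13 probes in the 4 control pools (blue) and the 4 morphant pools (orange). Grey lines join the 2 arrays that shared a slide, bars give mean and SD, and the brightest probes of fga and fgb show no overlap between the groups.

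**Figure D2:**
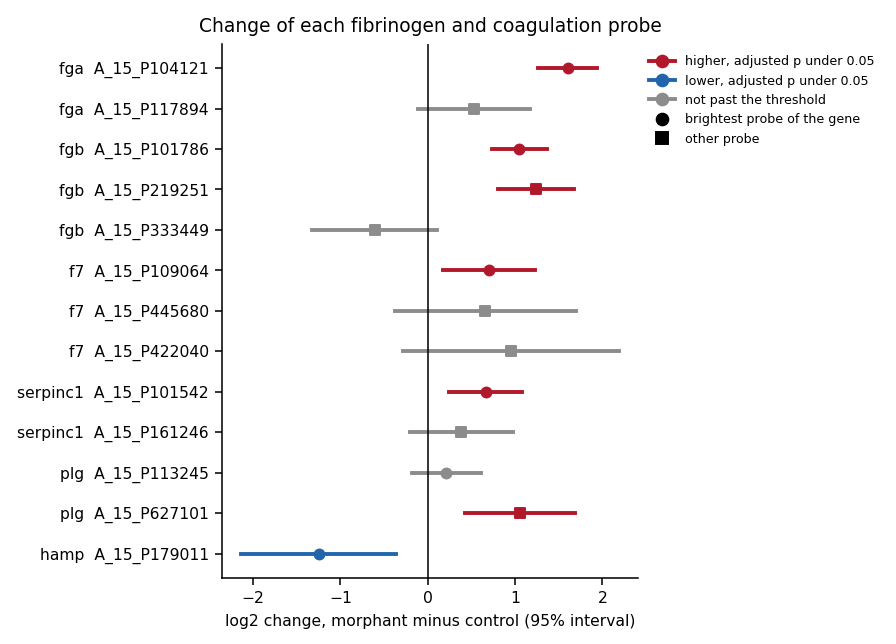
Log2 change with its 95% interval (horizontal axis) of each of the 13 probes, with red for higher, blue for lower and grey for not past the adjusted p of 0.05. Circles mark the brightest probe of a gene and squares the others, and the 3 probes of fgb do not fall on the same side of 0.

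The alpha chain gene fga was measured by 2 probes. Its brightest probe, A_15_P104121, read 1.93, 1.70, 1.95 and 1.96 in control pools 1 to 4 and 3.27, 3.53, 3.34 and 3.82 in morphant pools 1 to 4. The 4 morphant pools all lay above the 4 control pools, with more than a log2 unit between them. The change was 1.61 ± 0.15 (SE, 95% interval 1.27 to 1.94, limma adjusted p = 0.000137). Within the 4 slides, each of which held a control and a morphant array, it was 1.34, 1.83, 1.39 and 1.86.

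The second fga probe, A_15_P117894, read 1.78, 2.35, 2.37 and 1.58 in controls and 1.79, 2.72, 2.92 and 2.76 in morphants. The groups overlapped because morphant pool 1 lay among the controls. The change of 0.53 had a 95% interval of -0.12 to 1.18 and did not pass (limma adjusted p = 0.171), although without morphant replicate 1 it was 0.78 and passed (adjusted p = 0.0342). The changes of both fga probes differed by 1.08, with an exact permutation p of 0.0286 over the 8 arrays, the smallest that 4 against 4 allows. After adjustment over the 9 pairs of probes of the same gene this p was 0.0643.

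The beta chain gene fgb had 3 probes, of which 2 rose. The brightest, A_15_P101786, read 3.93, 3.57, 3.70 and 3.91 in controls and 4.69, 4.89, 4.69 and 5.03 in morphants. Every morphant pool was above every control pool, and the change was 1.05 ± 0.14 (SE, 95% interval 0.74 to 1.37, limma adjusted p = 0.000746). Probe A_15_P219251 read 2.94, 2.31, 2.59 and 2.82 in controls against 3.75, 3.90, 3.66 and 4.31 in morphants. These groups did not overlap either, and the rise was 1.24 ± 0.19 (SE, limma adjusted p = 0.00152). From pool to pool within the groups these 2 probes varied together, with a correlation of 0.97 over the 8 arrays.

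The third fgb probe, A_15_P333449, went the other way. It read 1.34, 2.13, 1.44 and 2.70 in controls and 1.26, 0.96, 1.20 and 1.75 in morphants. The groups overlapped, the change of -0.61 had a 95% interval of -1.32 to 0.10, and it did not pass (limma adjusted p = 0.154). On each of the 4 slides the morphant value was nevertheless the lower, by 0.08 to 1.17. Its change was smaller than that of the other fgb probes by 1.66 and 1.85 (exact permutation p = 0.0286 each, 0.0643 adjusted over the 9 pairs). It correlated with these probes at only 0.19 and 0.16 within the groups. Scaled to the spike-ins its change was 0.13 (adjusted p = 0.754). Whether the 3 probes bind different transcripts of fgb was not tested, since probe sequences were not used here.

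Factor VII, the protease that starts the cascade with tissue factor, was read by 3 probes of f7. The brightest, A_15_P109064, stood at -1.86, -1.96, -1.96 and -2.45 in controls and at -1.03, -1.38, -1.07 and -1.97 in morphants. Morphant pools 1, 2 and 3 were above all controls and morphant pool 4 lay among them. The change was 0.70 ± 0.23 (SE, 95% interval 0.17 to 1.22, limma adjusted p = 0.0423), and it was above 0 on each slide, at 0.84, 0.58, 0.89 and 0.47. The call was lost when any of 6 arrays was left out (adjusted p = 0.0707 to 0.108 without control replicate 2, 3 or 4 or morphant replicate 1, 2 or 3), at changes of 0.57 to 0.73.

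The other f7 probes spread widely among the controls. Probe A_15_P445680 ran from -3.64 in control pool 4 to -1.28 in control pool 1 and from -2.28 to -1.36 in morphants. Probe A_15_P422040 ran from -4.61 to -1.71 in the same 2 control pools and from -2.69 to -1.68 in morphants. Both had their lowest morphant value in pool 4, and their deviations from the group means correlated at 0.999 over the 8 arrays. Their changes of 0.66 and 0.95 did not pass (limma adjusted p = 0.277 and 0.195), with 95% intervals of -0.37 to 1.69 and -0.28 to 2.19. Without control replicate 1 the second was 1.40 and passed (adjusted p = 0.0446).

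The antithrombin gene serpinc1 rose at its brightest probe. That probe, A_15_P101542, read 1.48, 1.42, 1.57 and 1.40 in controls and 2.21, 2.27, 2.45 and 1.59 in morphants. The controls were tightly grouped, and morphant pool 4 lay just above them while the other morphant pools lay well above. The change was 0.66 ± 0.18 (SE, 95% interval 0.24 to 1.08, limma adjusted p = 0.0213). It ended just short of the threshold without control replicate 2 or morphant replicate 1, 2 or 3 (adjusted p = 0.0509 to 0.0566). The second probe, A_15_P161246, read 0.11, 0.84, 0.68 and 0.40 in controls and 0.82, 0.98, 1.47 and 0.30 in morphants. These groups overlapped, and the change of 0.39 did not pass (95% interval -0.20 to 0.97, limma adjusted p = 0.265).

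Plasminogen, the precursor of the protease that dissolves clots, gave different calls at its 2 probes. The brightest plg probe, A_15_P113245, read 1.99, 1.60, 2.19 and 1.59 in controls and 2.16, 2.13, 2.16 and 1.77 in morphants, a change of 0.21 with a 95% interval of -0.18 to 0.61 (limma adjusted p = 0.361). The groups overlapped. Probe A_15_P627101 read -1.57, -0.50, -1.19 and -1.67 in controls and -0.37, -0.07, 0.25 and -0.52 in morphants. Here control pool 2 reached the lowest morphant pool and the other 3 controls lay below all morphants, with a rise of 1.06 ± 0.28 (SE, limma adjusted p = 0.0170). The changes of the 2 probes differed by 0.84, with an exact permutation p of 0.114 (0.171 adjusted over the 9 pairs).

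Hepcidin transcripts fell, and they also varied most among the morphant pools. The single hamp probe, A_15_P179011, read 2.65, 2.24, 2.57 and 1.83 in controls and 0.11, 1.06, 0.97 and 2.16 in morphants. Morphant pools 1, 2 and 3 lay below all controls, and morphant pool 4 lay among the controls. The change was -1.25 ± 0.39 (SE, 95% interval -2.14 to -0.36, limma adjusted p = 0.0336), with slide values of -2.54, -1.18, -1.60 and, on the slide of replicate 4, 0.32. With the replicate number as a block the change did not pass (adjusted p = 0.0690). Nor did it pass without control replicate 1, 2 or 3 or morphant replicate 1, 2 or 3 (adjusted p = 0.0674 to 0.0794, changes of -1.28 to -0.93). Without morphant replicate 4 it was -1.61 (adjusted p = 0.00516). The gene table gives hamp1 and hamp2 as other names of this gene, so near-identical hepcidin copies may share the signal.

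The groups did not overlap for 4 of the 13 probes, namely the brightest of fga, fgb and serpinc1 and the second of fgb, all higher in morphants. Over all probes measured on every array, 37.8% had groups that did not overlap, 17.2% with morphants higher and 20.6% with morphants lower.

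Within the groups the members did not vary as a unit. Morphant pool 4 had the highest fga, fgb and hamp of the 4 morphant pools and the lowest f7, serpinc1 and plg, each at its brightest probe. After removal of the group means, the brightest probes of fga and fgb correlated at 0.86 over the 8 arrays. Those of f7 and serpinc1 correlated at 0.83. By contrast, the fga probe correlated at -0.83 with that of f7, at -0.72 with serpinc1 and at 0.78 with hamp. Other probes did not all follow. The second fga probe correlated at 0.18 with the first, and at -0.19, -0.08 and 0.02 with the brightest of fgb, f7 and serpinc1. With the brightest fga probe, the dimmer f7 probes were at -0.25 each, and the second serpinc1 and fgb probes at -0.71 and 0.88. These are descriptions over 8 arrays that pair up on 4 slides. Morphant pool 4 lay farthest of the 8 arrays from its group mean for fga, f7, serpinc1 and hamp, at 0.33, -0.61, -0.54 and 1.08. The correlations among these genes therefore rest in part on that pool, and they were not recomputed without it.

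**Figure D3:**
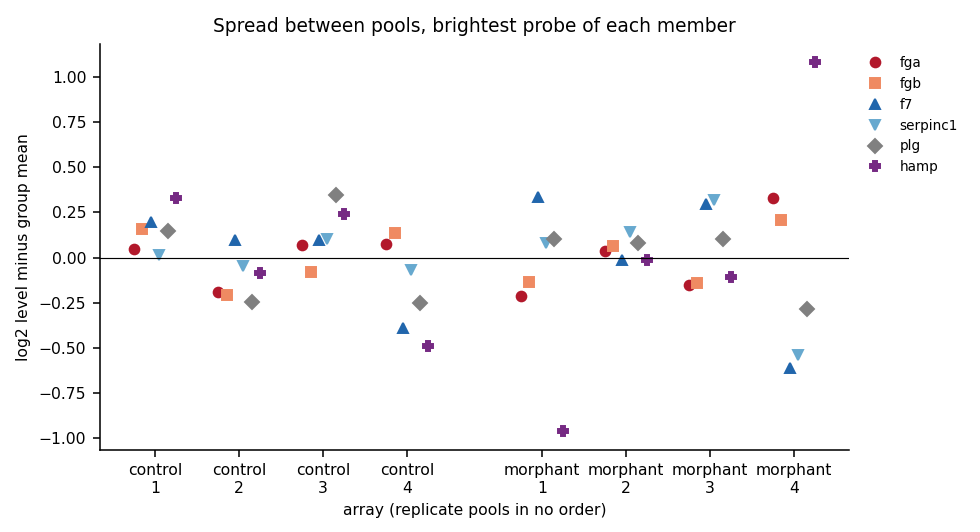
Log2 level minus the mean of its group (vertical axis) of the brightest probe of each of the 6 genes in the 8 arrays (horizontal axis). In morphant pool 4 fga, fgb and hamp lie above 0 while f7, serpinc1 and plg lie below it.

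Genes were then ranked by how closely their brightest probe followed the mean of the brightest fga and fgb probes within the groups, over 8 arrays and 11222 named genes. The 8 highest were ctss2.1 at a correlation of 0.99, ncf1, stxbp2, tes and mfsd10 at 0.98, shdb and nek8 at 0.97 and cyb5d1 at 0.96. Their group differences varied: mfsd10 and cyb5d1 fell by 0.52 and 0.82 (limma adjusted p = 0.0272 and 0.0157), nek8 rose by 0.63 (adjusted p = 0.00226), and the other 5 did not pass. The call of mfsd10 was lost without control replicate 1, 3 or 4 or morphant replicate 1, 2 or 3. They are the top of that ranking, in which 67 genes had a correlation above 0.9. With each array left out in turn the lowest value among the 8 was 0.936, for nek8. Since the 8 were picked for high correlations on these same arrays, this is no test of their stability. Among the members, f7 stood at -0.80 (-0.94 to -0.55 with an array left out), serpinc1 at -0.68 (-0.86 to -0.03), hamp at 0.68 (0.28 to 0.88) and plg at -0.27 (-0.68 to 0.20). The 22 hepatocyte genes described below had a median of -0.44 and ran from -0.81 to 0.74, against a median of -0.01 over all genes compared.

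The rest of the clotting cascade was described through gene lists chosen with earlier results of these data known, each gene by its brightest probe. At this level 38.3% of all 23400 genes passed, 16.4% higher and 21.9% lower. Of 15 genes listed as other procoagulant factors 7 were tested, 5 rose and 1 fell, with a median change of 1.47. That list holds the f7 relatives f7i and f7l, and whether their products promote or restrain clotting was not tested. The gene f7i, a neighbour and relative of f7, rose by 2.89 ± 0.48 (SE, limma adjusted p = 0.00227), from -3.19 ± 0.84 to -0.30 ± 0.78 (SD, n = 4 each), and its other probe changed by 4.20. The factor IX gene f9b rose by 2.51 ± 0.16 (SE, limma adjusted p = 1.56e-05), from -3.30 ± 0.28 to -0.79 ± 0.10 (SD, n = 4 each). In contrast, f9a was at -0.38 (adjusted p = 0.435), and -2.05 at its other probe.

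Also in that list, f7l rose by 1.64 (limma adjusted p = 0.000432) and f13a1b, which encodes a chain of the fibrin-crosslinking factor XIII, rose by 1.47 (adjusted p = 0.000320). The other f13a1b probes changed by 1.80 and 1.91, but those of f7l were at -2.51 and 1.65. The vitamin K epoxide reductase relative vkorc1l1 rose by 0.39 (adjusted p = 0.0346) and lost the call without any of 6 arrays (adjusted p = 0.0534 to 0.0943 without control replicate 2, 3 or 4 or morphant replicate 1, 2 or 4). The tissue factor gene f3b fell by 0.72 (adjusted p = 0.0277), a call lost without control replicate 2 or 3 or morphant replicate 1 or 3 (adjusted p = 0.0571 to 0.0753). Scaled to the spike-ins f3b was at 0.02.

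Genes that restrain or dissolve clots formed another list. Of 21 listed 10 were tested, 4 rose and 1 fell, with a median of 0.18. With an array left out 2 to 4 rose (2 without control replicate 2 or 3 or morphant replicate 1, 2 or 4), and 2 rose after normexp with 75th percentile scaling. The protein C gene proca rose by 0.96 ± 0.20 (SE, limma adjusted p = 0.00565), and serpinf2b, which encodes the plasmin inhibitor, rose by 0.86 (adjusted p = 0.00157). Its other probes gave 2.64 and 2.69. The protease nexin gene serpine2 rose by 0.32 (adjusted p = 0.0452) and passed with an array left out only when that was control replicate 1 (adjusted p = 0.0712 to 0.118 otherwise). It also missed the threshold with the replicate number as a block. The tissue factor pathway inhibitor gene tfpia fell by 0.74 ± 0.13 (SE, adjusted p = 0.00266), and was at -0.001 with spike-in scaling.

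The neighbours of the members in the gene table were read only for their order. The genes f7l, f7, f7i and f10 follow one another, and beyond f10 and prozb pcid2 changed by 0.39 (limma adjusted p = 0.0300) and cul4a by -0.21 (adjusted p = 0.237). On the other side, beyond f7l and an unnamed gene, setdb2 rose by 0.60 (adjusted p = 0.00803). The gene fgb is separated from fga by a single unnamed gene. Next to fgb, rnf175 changed by 0.06, and beyond fga and lratb.1, which had no value, lratb.2 changed by -0.43. Neither passed (limma adjusted p = 0.700 and 0.126). Since f7, f7i and f7l are relatives, signal shared between their probes was not tested.

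Other liver genes moved in both directions. Of 29 listed hepatocyte plasma proteins and enzymes 22 were tested, 4 rose and 5 fell, and the median change was -0.20. These counts were close to the shares of all genes, at 16.4% higher and 21.9% lower. With the replicate number as a block 4 of the list rose and 10 fell, and after normexp with 75th percentile scaling 3 rose and none fell. Without control replicate 2 or 3 the number that fell was 3. Those that rose encode plasma proteins: the vitronectin genes vtna, by 1.59 ± 0.16 (SE, limma adjusted p = 0.000207), and vtnb, by 1.47 ± 0.21 (SE, adjusted p = 0.000992), with ambp at 1.26 (adjusted p = 0.00635) and the ceruloplasmin gene cp at 0.95 (adjusted p = 0.0191). Of these, cp lost the call without control replicate 3 (adjusted p = 0.0516), and its other probes gave -0.04 and 1.39. Those that fell encode enzymes that break down phenylalanine and tyrosine: hpda at -1.01, hgd at -0.71, tat at -0.63, pah at -0.51 and fah at -1.47 (adjusted p = 0.0140, 0.0272, 0.0190, 0.0135 and 0.0301). The other probe was at -1.30 for hpda, -0.63 for hgd and -0.08 for pah, and those of tat ran from -1.35 to -0.09. The 5 further genes that passed as lower with the block were not enzymes: fabp10a and the plasma protein genes ttr, ahsg1, ahsg2 and gc, at -1.24, -0.54, -1.12, -2.42 and -0.67. Of these, ahsg1 was well above background on 3 of 4 morphant arrays and passed the filter only through the controls. Scaled to the spike-ins, ttr and gc were above 0, at 0.20 and 0.07.

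The call of fah was lost without control replicate 2, 3 or 4 or morphant replicate 1 or 4 (adjusted p = 0.0589 to 0.0776), and its other 3 probes all lay above 0, at 0.09 to 5.45, so the direction of fah is uncertain. That of hgd was lost without control replicate 1, 2 or 3 or morphant replicate 1, 2 or 4 (adjusted p = 0.0562 to 0.0719). Scaled to the spike-ins, none of the 5 passed, and hgd, tat and pah were above 0. The liver fatty acid binding protein gene fabp10a, a defining hepatocyte marker, was at -1.24 without passing (adjusted p = 0.0534). It passed in 6 of 18 alternatives. These were the replicate block, normexp with quantile normalization, the deposited table, only probes well above background on all arrays, and leaving out morphant replicate 1 or 4 (adjusted p = 0.0413 and 0.0496). The summed scaled signal of the list ran from 605 to 947 in controls and from 584 to 786 in morphants. No gene of the list was at 0, and 21 of the 22 were well above background on every array. The part of the amount of liver tissue in the fibrinogen and hepcidin changes was not tested.

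Liver transcription factors were mixed, with 3 of 15 tested genes higher, 2 lower and a median of -0.08 (5 higher and 1 lower with the replicate block, none higher and 1 lower after normexp with 75th percentile scaling). The gene hnf1ba rose by 0.48 (limma adjusted p = 0.0102) and onecut1 by 0.69 (adjusted p = 0.0309). The liver and lymphatic regulator gene prox1a fell by 0.67 (adjusted p = 0.00690). Other probes gave -0.04 and 0.45 for hnf1ba, 0.27 for onecut1 and -0.54 for prox1a. The bile acid receptor gene nr1h4 fell by 0.79 (adjusted p = 0.0409), a call lost without any single array but control replicate 4 (adjusted p = 0.0524 to 0.108) and with the replicate block. That of onecut1 was lost without control replicate 3 or morphant replicate 1, 2 or 4 (adjusted p = 0.0550 to 0.0799).

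Of 13 tested genes of iron handling, 2 rose and none fell by the limma threshold, and 10 had a change above 0, with a median of 0.16. With the replicate block 3 rose and 1 fell, and without control replicate 1 4 rose and 2 fell. Those that rose were the transferrin receptor gene tfr2, by 0.78 (limma adjusted p = 0.0147), and bmp6, by 0.73 (adjusted p = 0.00947), both upstream activators of hepcidin in mammals. Both missed the threshold after normexp correction with 75th percentile scaling (adjusted p = 0.336 and 0.355). The ferroportin gene slc40a1 was at 0.14 (adjusted p = 0.400), and id1, a target of BMP signalling, at 0.19 (adjusted p = 0.251), with its other probe at -1.97.

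Acute phase and interleukin 6 genes gave 3 rises and no fall among 13 tested, with a median of 0.38. There were 5 rises with the replicate block and none after normexp with 75th percentile scaling. Without morphant replicate 4 the median was -0.002, with 1 rise and 1 fall, and without control replicate 2 or morphant replicate 2 none passed. The feedback inhibitor gene socs3b rose by 1.06 (limma adjusted p = 0.0352), and its other probes gave 1.31 to 1.52. Its paralogue socs3a was at -0.93 (adjusted p = 0.0519). The call of socs3b was lost without control replicate 1, 2 or 3 or morphant replicate 2 or 4 (adjusted p = 0.0519 to 0.0945). The receptor gene il11ra rose by 0.50 and the kinase gene jak2a by 0.44 (adjusted p = 0.0414 and 0.0269). The call of il11ra was lost without control replicate 1, 2 or 3 or morphant replicate 1, 2 or 4 (adjusted p = 0.0510 to 0.105), and that of jak2a without control replicate 2 or 4 or morphant replicate 1, 2 or 3 (adjusted p = 0.0538 to 0.0661). The serum amyloid gene saa was at 1.61 (adjusted p = 0.396), with morphant pools from -6.73 to 0.30, and stat3 at 0.82 (adjusted p = 0.175). The largest change of the list, that of lepb at 4.19, did not pass (adjusted p = 0.0573). The lepb probe was well above background on 1 of 4 control arrays and passed the filter only through the morphants. It passed the threshold with the replicate block, with spike-in scaling and without control replicate 4.

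Cells that use or line the clotting system were examined next. The thrombocyte list includes thpo, which encodes the ligand of the mpl receptor, and which cells expressed it was not tested. Of the 10 tested genes of that list 3 rose and 2 fell, with a median of -0.005. Among those well above background on all arrays 1 rose and 1 fell, and after normexp with 75th percentile scaling none rose and 1 fell. The integrin-binding gene fermt3b, which leukocytes also express, rose by 1.17 (limma adjusted p = 0.00259), and the thromboxane synthase gene tbxas1 fell by 0.92 (adjusted p = 0.0102). The thrombopoietin gene thpo, not well above background in controls, exceeded them in morphants by at least 1.39-fold in the main fit (adjusted p = 0.0192). It passed the filter only through the morphants, and its call was lost with both normexp settings, with the deposited table and without control replicate 3 or morphant replicate 1 or 2, at adjusted p of up to 0.863 and a change as low as 0.25. Its receptor gene mpl was at -1.83 (adjusted p = 0.0148) with 1 of 4 morphant arrays well above background, so that size is uncertain. The mpl probe passed the filter only through the controls. It missed the threshold after normexp with 75th percentile scaling and with spike-in scaling. The summed signal of the list ran from 2.54 to 3.18 in controls and from 2.20 to 2.68 in morphants.

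Of 10 endothelial genes 6 rose and 1 fell, with a median of 0.43, against 2 that rose and none that fell after normexp with 75th percentile scaling. The vessel gene egfl7 rose by 0.82 ± 0.12 (SE, limma adjusted p = 0.00140), and the VEGF receptor gene flt1 by 1.39 ± 0.29 (SE, adjusted p = 0.00579). In that setting flt1 was at 0.62 and did not pass (adjusted p = 0.274). The angiopoietin receptor gene tek fell by 0.60 (adjusted p = 0.0137). The list's summed signal ran from 5.81 to 6.26 in controls and from 7.43 to 9.22 in morphants.

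Lists for other tissues of the larva gave further values beside the members. In the exocrine pancreas list 2 of 11 genes fell and none rose by the limma threshold, with a median of -1.07. The median was -0.51 without morphant replicate 4, -0.65 without control replicate 1 and -1.58 without control replicate 4, where 4 genes fell. The 2 that fell in the main fit were ela2l at -3.67 (limma adjusted p = 0.00288) and amy2a at -2.58 (adjusted p = 0.0348). Of these, amy2a lost the call without control replicate 1, 2 or 3 or morphant replicate 2 (adjusted p = 0.0605 to 0.0836). The summed signal of that list ran from 314 to 1311 in controls and from 141 to 726 in morphants, and with the replicate block 9 of its genes fell. In the intestine list alpi.1 was the 1 of 10 that passed, rising by 0.69 (adjusted p = 0.00839), with a median of -0.04, while 3 fell with the block or without control replicate 4. In the yolk syncytial layer list mxtx2 was the 1 of 5, at least 1.43-fold lower in the main fit (adjusted p = 0.00158). It was not well above background in morphants and passed the filter only through the controls. Its call was lost with both normexp settings, spike-in scaling and the deposited table (adjusted p of up to 0.940), with a change of -0.15 at its weakest. In the cell cycle list cdk1 rose and 3 of 12 genes fell, among them mcm6 by 0.80 and mcm2 by 0.54 (adjusted p = 0.00327 and 0.0252), with a median of -0.25. After normexp with 75th percentile scaling none rose and 1 fell. The change of cdk1 was 0.37 (adjusted p = 0.0457) and lost the call without any array but morphant replicate 2 (adjusted p = 0.0502 to 0.121). That of mcm2 was lost without control replicate 1, 2 or 3 or morphant replicate 2 or 4 (adjusted p = 0.0517 to 0.0604). The other probes of mcm6 and mcm2 were at -0.14 and -0.04. The part of these tissues in the members' changes was not tested.

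**Figure D4:**
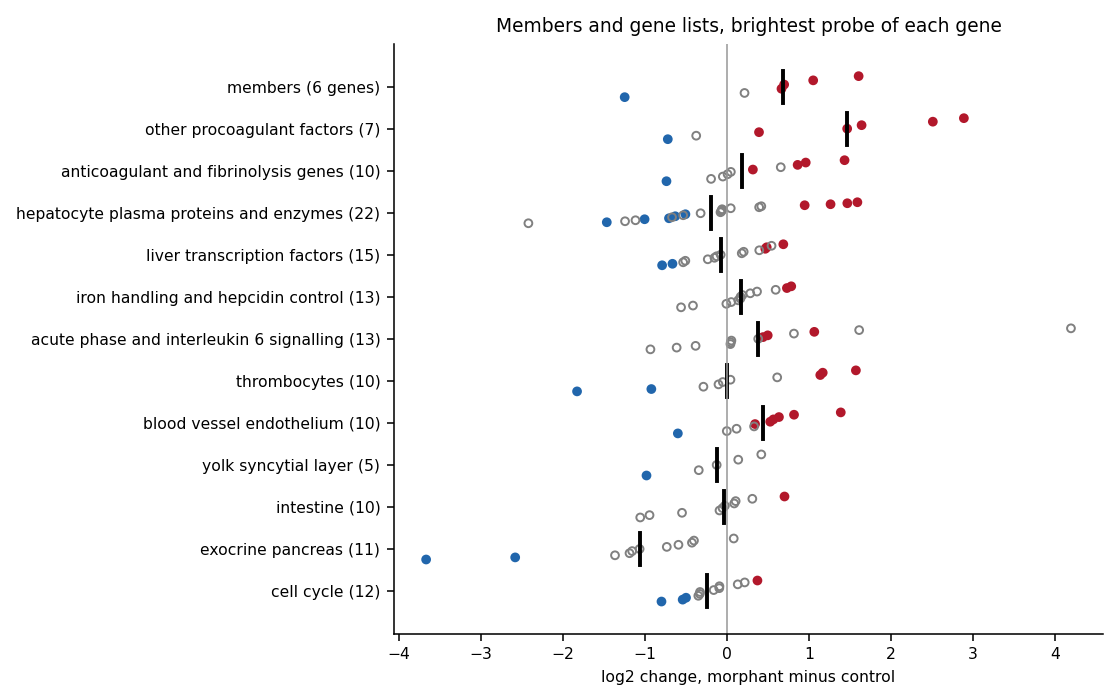
Log2 change (horizontal axis) of the brightest probe of each gene, with 1 row for the 6 members and 1 for each list, the number of genes tested in brackets. Red and blue points passed an adjusted p of 0.05, open points did not, and black bars are medians: 0.68 for the members, 1.47 for the other procoagulant factors and -0.20 for the hepatocyte list.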

How the data were processed

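Total RNA of 8 pools was hybridised to 1-colour arrays. Per the file headers, Feature Extraction 10.7.3.1 gave the intensity of each spot, background-subtracted (processed signal) and raw, on a zebrafish design built on danRer6. These values carry no scaling across arrays. How the log2 values of the deposited table were made is not given in the sources used here. For 6 of its 8 columns the closest scanner data were those of a different pool from that group, and it served only as an alternative.

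Control and outlier spots were dropped, processed signals were taken to log2 and lowered by the array's 75th percentile, and spots of a probe were averaged. Probes were kept if well above background on all 4 arrays of a group. Accessions without versions named 25069 of 43603 probes through a RefSeq table of the assembly GRCz12tu, used for names and order only. The brightest probe of a gene has the highest mean over the 8 arrays. Since these include the morphants, the choice can favour a probe that rose, as it did for fga. Groups were compared per probe with limma 3.58.1 in R 4.3.3, with Benjamini-Hochberg adjustment over all tested probes and a threshold of 0.05. Unlike a fit on 1 probe per gene, this shows every probe. For single values the test was an exact permutation test, two-sided (scipy 1.17.1).

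A probe dim on every array of a group has only a bound. There the floor on each dim array was the lowest signal well above background, or the probe's own signal where higher, and the mean of the bright group was compared with the mean floor. Such a bound holds for the group means under the main scaling and carries no error. Replicate numbers, slide and scan coincide. Deviations from the group means correlated at 0.444, 0.140, 0.304 and 0.259 within the 4 numbers, so these were taken to pair the samples. A fit with the number as a block was run as an alternative, with the other alternatives given below. The main fit and the exact permutation tests did not use this pairing. Arrays within a group correlated at 0.973 to 0.993. The labels call the replicates separate pools. The number of arrays limits the precision. On data simulated for morphant against control, 200 of 36646 probes were given a change. There the fit recovered 50% of log2 changes of 1 and 84% of changes of 2. Of the 36707 real probes tested 38.5% passed, so these rates are not the power of the real comparison.

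Members and lists were chosen with earlier results of these data known. Named genes are all member probes, the 2 largest rises and falls past the threshold per list and the 8 genes most like the fibrinogens. Other genes named from the lists, and the neighbours, were chosen after their values were seen. The rule for the last was to use fga, fgb and fgg, of which the first 2 had probes. Of the listed genes, tfpib was the same table entry as tfpia and counted once. A gene that the naming rule selects is not reported here.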

Additional observations from a re-analysis of the deposited data

Results flagged for a closer look

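In 3 of 30 groups of 4 arrays examined, 1 array stood apart from the other 3 by Dixon's ratio (the gap to the nearest value over the whole range) at its 95% critical value. By chance about 1 in 20 groups would do so. For the brightest fga probe, control pool 2 at 1.70 lay below the other controls (ratio 0.887). For the brightest f7 probe, control pool 4 at -2.45 lay below the other controls (ratio 0.832). For the brightest plg probe, morphant pool 4 at 1.77 lay below the other morphants (ratio 0.941).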

How the results depend on the processing

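There were 18 alternatives, 8 of which left out an array each. All of them kept the calls of the brightest fga probe, at limma adjusted p of at most 0.00334, and of the brightest fgb probe, at changes of 0.98 to 1.79. The second probes of fgb and plg that rose also passed in every fit that held them. The member probes past the threshold numbered 7, against 4 after normexp with 75th percentile scaling, 11 with spike-in scaling and 4 to 7 with an array left out (4 without control replicate 2 or morphant replicate 2 or 3). All probes past the threshold numbered 14119, against 3948, 22242 and 10546 to 14776 in the same order, and 8963 for the brightest probe of each gene, where fewer were tested. After normexp with 75th percentile scaling f7 was at 0.586 (adjusted p = 0.144), serpinc1 at 0.617 (adjusted p = 0.0730) and hamp at -1.20 (adjusted p = 0.0954). With spike-in scaling, which raised every change by about the same amount, hamp was at -0.511 (adjusted p = 0.290), the brightest plg probe passed at 0.951, the third fgb probe turned to 0.128, and the median change of the 6 genes was 1.42. The cause of the other shifts was not tested. With the replicate block hamp stayed at -1.25 (adjusted p = 0.0690), and the other member calls did not change. Without a filter on dim probes f7 was at 0.697 (adjusted p = 0.0549). With an array left out the brightest probes changed by 0.567 to 0.901 for f7, 0.557 to 0.844 for serpinc1 and -1.61 to -0.928 for hamp. Of all called probes 54.7% were lower, against 47.1% with median scaling, 49.0% with quantile normalization and 7.10% with spike-in scaling. Among the members the dimmer f7 probes had the largest standard errors, at 0.455 and 0.545.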
